A study of Mus musculus with 16 samples.

Results

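The Z-disc genes described here are 10 genes of heart muscle that were chosen by name: *Actn2*, *Ldb3*, *Myoz2*, *Csrp3*, *Tcap*, *Cryab*, *Xirp1*, *Xirp2*, *Nebl* and *Synpo2l*. All 10 were found by their Ensembl identifiers among the 51912 genes of the count table, and all 10 passed the filter on low counts. RNA was sequenced from whole mouse ventricles in 4 groups of 4 hearts. WT control mice were C57BL/6J, and *Lrrc10*-/- (KO) mice lacked *Lrrc10* in the whole body on a C57BL/6 background. Surgery on postnatal day 1 was either sham (SH, the chest was opened) or a myocardial infarction (MI) made by tying the left anterior descending coronary artery, and the ventricles, above and below the tie, were collected 7 days later. This gave the sham groups WT SH and KO SH and the infarct groups WT MI and KO MI, of which KO MI has replicate numbers 1, 2, 3 and 7. The question put to the data was whether transcripts of the Z-disc differed between the genotypes in the uninjured neonatal heart and post-MI.

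The Z-disc is the border of the sarcomere, where actin filaments of opposite polarity are held together by α-actinin, and where titin and many adaptor proteins are anchored. It carries force from one sarcomere to the next, and several of its proteins also move to the nucleus or bind signalling enzymes. LRRC10 is a leucine-rich repeat protein found almost entirely in heart muscle cells, where it sits near the Z-disc and binds α-actinin and actin. *Actn2* encodes the α-actinin of heart muscle and is therefore the member closest to the deleted gene. *Ldb3* (Cypher), *Myoz2* (calsarcin), *Nebl* (nebulette) and *Synpo2l* (CHAP) encode proteins that bind α-actinin or the filaments beside it. *Csrp3* (muscle LIM protein) and *Tcap* (telethonin) encode small proteins linked to the sensing of stretch and to titin. *Cryab* encodes αB-crystallin, a small heat shock protein, and *Xirp1* and *Xirp2* encode the actin-binding Xin repeat proteins, which in the mature heart are found mostly at the intercalated disc.

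The members on which the comparisons turn were *Actn2*, *Xirp2* and *Synpo2l*, so the sequence before their starts is shown. These are the 250 bases upstream of each start in the RefSeq promoter table, whose build is GRCm38.p6, read 5′ to 3′ on the strand of the gene. Capitals mark E-boxes (CANNTG, the site of basic helix-loop-helix factors) and MEF2 sites, with overlapping matches joined, and both strands were searched. The window of *Actn2* lies at chr13:12340733-12340982 on the minus strand, and that of *Xirp2* at chr2:67445752-67446001 on the plus strand. The windows of the 2 starts of *Synpo2l* lie at chr14:20668355-20668604 and chr14:20664575-20664824 on the minus strand.
Actn2: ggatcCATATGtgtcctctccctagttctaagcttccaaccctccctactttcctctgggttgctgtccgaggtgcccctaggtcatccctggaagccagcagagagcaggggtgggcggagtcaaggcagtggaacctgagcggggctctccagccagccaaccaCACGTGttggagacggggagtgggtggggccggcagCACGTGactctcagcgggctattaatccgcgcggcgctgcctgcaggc
Xirp2: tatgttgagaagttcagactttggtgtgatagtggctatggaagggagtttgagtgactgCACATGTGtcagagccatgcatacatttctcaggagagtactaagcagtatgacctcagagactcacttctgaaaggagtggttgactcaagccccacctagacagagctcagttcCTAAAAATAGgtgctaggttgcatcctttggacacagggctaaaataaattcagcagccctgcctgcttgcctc
Synpo2l, first start: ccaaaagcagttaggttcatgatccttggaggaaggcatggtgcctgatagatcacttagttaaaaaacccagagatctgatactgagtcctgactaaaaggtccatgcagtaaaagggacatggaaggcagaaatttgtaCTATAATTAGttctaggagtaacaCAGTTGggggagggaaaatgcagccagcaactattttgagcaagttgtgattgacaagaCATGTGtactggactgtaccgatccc
Synpo2l, second start: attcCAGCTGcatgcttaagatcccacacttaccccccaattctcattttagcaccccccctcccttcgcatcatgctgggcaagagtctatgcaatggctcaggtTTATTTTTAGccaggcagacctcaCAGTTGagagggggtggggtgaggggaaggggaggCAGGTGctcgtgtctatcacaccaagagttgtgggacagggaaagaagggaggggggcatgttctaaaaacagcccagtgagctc
The *Actn2* window held 3 E-boxes and no MEF2 site, with its pair of CACGTG matches starting 84 and 48 bases before the start. The *Xirp2* window held 1 MEF2 site, which began 74 bases before the start, and 2 E-boxes that overlapped each other. Both *Synpo2l* windows held 1 MEF2 site, at 109 and 144 bases. Of the 10 members, 7 had entries in the table, with 13 windows in all, and a MEF2 site was present in 3 members, the third being *Myoz2*. Over all 32851 windows of the table, 2.92% held a MEF2 site and 66.2% an E-box. The CArG box, the site of serum response factor, was in 2 members (*Ldb3* and *Nebl*) and in 1.47% of all windows. The shares are of single windows, whereas members are counted as genes, some with several windows, so these counts and shares differ in unit. These matches describe the letters alone.

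Total counts ranged from 33783874 to 57470159 per library (median 45092798), and the members had from 585 to 126267 counts each. The deleted gene followed the labels. *Lrrc10* had 1075 to 1850 counts in WT SH and 1247 to 1355 in WT MI, and 0 counts in each of the 8 KO libraries, where a count of 0 allows up to 3. As markers of heart muscle cells, 10 of 10 listed genes were present in every library, with a summed level of 28708 to 44134 CPM, the count of a gene relative to the TMM-scaled library size. Before any comparison, KO MI replicate 2 stood apart. It held the highest value of the 16 libraries for 8 of the 10 members, against 14.6% of all tested genes. Its level of *Nppa*, atrial natriuretic peptide, was 2396 CPM against 43.2 to 778 CPM elsewhere in the KO groups and 41.2 to 207 CPM in the WT groups. The 18 listed skeletal muscle genes summed to 234 CPM in KO MI replicate 2 and 178 CPM in KO MI replicate 7, and to 13.3 to 54.9 CPM in the other 14 libraries. Of these 18 genes, 15 were above every WT library in replicate 2 and 14 in replicate 7, and 2 had a count of 0 in at least 1 KO MI library. KO MI replicate 7 held the lowest value of 2 members, *Myoz2* and *Cryab*. The female-specific transcript *Xist* was above 100 CPM in 0 of 4 WT SH libraries and in 2 of 4 of each other group, whereas the study's methods give an equal ratio of the sexes. The sexes of the libraries are not given in the labels, and this difference was not settled. Mitochondrial genes took 45.5% to 46.7% of the counts in WT SH, 46.8% to 47.8% in KO SH, 43.5% to 44.2% in WT MI and 38.2% to 45.0% in KO MI. Calls on named genes that rest on KO MI are therefore also given without replicate 2, replicate 7 or both where this ended the call or moved the value by more than 1.5 times, and the part of these differences between libraries in the results was not tested.

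Per kb of the canonical transcript, *Actn2* was the most abundant member in each group (217 ± 20.3 CPM per kb in WT SH; SD, n = 4 here and for all means below). *Csrp3* followed at 183 ± 18.2, and the ranges of these 2 members overlapped in WT SH (197 to 245 against 160 to 202 CPM per kb). *Ldb3* at 63.4 ± 4.4, *Myoz2* at 57.2 ± 5.95 and *Nebl* at 51.0 ± 4.37 CPM per kb came next. *Xirp2* at 42.4 ± 4.6, *Synpo2l* at 39.2 ± 4.54 and *Cryab* at 35.1 ± 1.63 CPM per kb followed, each overlapping its neighbour. *Xirp1* at 26.4 ± 2.34 and *Tcap* at 19.4 ± 2.85 CPM per kb were the lowest. The order was the same in WT MI. In KO SH, *Xirp2* was in the last place with 19.3 ± 2.88 CPM per kb, and in KO MI it was in place 3 with 77.6 ± 87.7 CPM per kb, an SD larger than the mean. The order depends on the length used: with the union of all exons in place of the canonical transcript, *Csrp3* in WT SH had 47.2 CPM per kb against 128.7 for *Actn2*, and *Synpo2l* moved to place 3.

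**Figure D1:**
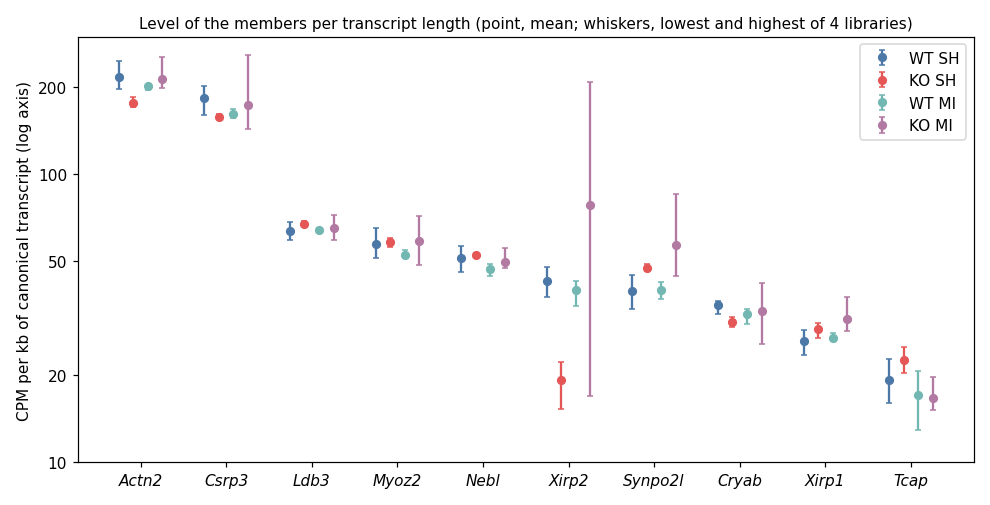
Level of the 10 members in CPM per kb of canonical transcript (log axis), as the mean of 4 libraries in each group with whiskers from the lowest to the highest library. *Actn2* and *Csrp3* stand above the other members in every group, and *Xirp2* spans 16.99 to 208 CPM per kb in KO MI.

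Few members were called between the groups with all 16 libraries in the fit. A call here is a Benjamini-Hochberg adjusted p under 0.1 in edgeR's quasi-likelihood F-test (two-sided) over the 20159 genes tested, and for a DEG the log2 fold change also had to be 0.5 or more in size. In KO SH against WT SH, 1 of 10 members was called (*Actn2*, lower) where 12.3% of all tested genes were. Of the members 0 were DEGs, where 5.01% of genes were. With the sham groups alone in the fit, 5 members were called (*Actn2*, *Csrp3*, *Cryab*, *Xirp2* and *Synpo2l*), where 18% of genes were. In KO MI against WT MI, 1 of 10 was called (*Synpo2l*, higher, a DEG) against 3.07% of genes called and 1.73% DEGs. In WT MI against WT SH, 0 of 10 members were called against 5.31% of genes, the smallest of their adjusted p-values was 0.336 and 0 had an unadjusted p under 0.05. DESeq2 called 0 as well. In KO MI against KO SH, 3 of 10 were called (*Actn2* and *Xirp2* higher, *Tcap* lower) against 17.5% of genes, and 1 was a DEG (*Xirp2*) against 7.42%. The interaction, in which the KO effect post-MI is set against that post-sham, called 0 of 10 members and 0.0248% of genes in edgeR, with 2 members (*Actn2* and *Xirp2*) and 13.6% of genes at an unadjusted p under 0.05. DESeq2 called 1 member (*Actn2*) and 4.49% of the genes to which it gave an adjusted p. The KO effect averaged over both surgeries called 2 of 10 (*Xirp1* and *Synpo2l*, both higher) against 11.5% of genes. Without KO MI replicate 2 it called 5, against 15% of genes. These were the same 2, and *Actn2* (-0.155), *Csrp3* (-0.183) and *Xirp2* (-0.673), which were lower. Since 1 member is 10% of the members, none of these shares is read as particular to them, and comparisons that share a group are not independent of each other.

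The libraries of 2 groups did not overlap in CPM for 4 of 10 members in KO SH against WT SH (*Actn2*, *Cryab* and *Xirp2* lower, *Synpo2l* higher), against 18.5% of all tested genes. The number was 2 of 10 in KO MI against WT MI (*Xirp1* and *Synpo2l*; 6.47% of genes), 0 of 10 in WT MI against WT SH (12.1%) and 2 of 10 in KO MI against KO SH (*Actn2* and *Tcap*; 14.9%). The exact permutation test (two-sided) cannot give a p under 0.0286 for 4 libraries against 4.

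**Figure D2:**
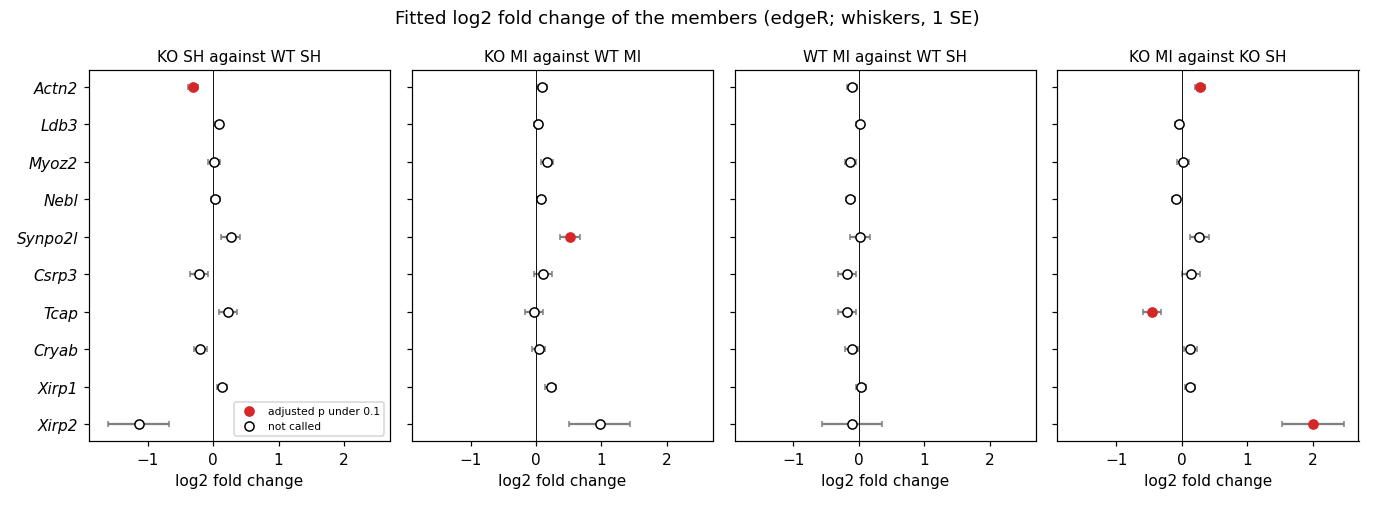
Log2 fold change of each member (points, with whiskers of 1 SE) in the 4 comparisons of 2 groups, with red points for an adjusted p under 0.1 and open points for the rest. *Xirp2* has the largest estimate and the largest SE, and no member is called in WT MI against WT SH.

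*Actn2* (chr13:12281303-12356693, minus strand, GRCm39, as for all gene positions below) was the only member called in KO SH against WT SH. *Xirp2* and *Cryab* were also lower in every KO SH library than in every WT SH library, without a call in the shared fit. The level of *Actn2* was 1571, 1380, 1348 and 1262 CPM in the WT SH libraries and 1097, 1137, 1180 and 1093 CPM in KO SH. Every KO SH library was below every WT SH library. *Actn2* fell by 19.0% (log2 fold change -0.30, SE 0.08, adjusted p = 0.0243; exact permutation p = 0.0286), and the call held in each of the 16 fits that left out 1 library. With the *Xist* state as a covariate the estimate was -0.33 (adjusted p = 0.0264). Post-MI the genotypes did not separate, with 1253, 1290, 1307 and 1305 CPM in WT MI and 1290, 1635, 1268 and 1294 CPM in KO MI (log2 fold change 0.09, SE 0.08, adjusted p = 0.728). From KO SH to KO MI *Actn2* rose by 21.8% (log2 fold change 0.28, SE 0.08, adjusted p = 0.0257), with all KO MI libraries above all KO SH libraries. From WT SH to WT MI the estimate was -0.11 (SE 0.08, adjusted p = 0.523). The KO effect post-MI minus that post-sham was 0.39 on the log2 scale (SE 0.11, adjusted p = 0.188), which was not called in edgeR. Without KO MI replicate 2 the rise from KO SH to KO MI was 0.19 (adjusted p = 0.0836), and without replicates 2 and 7 it was 0.17 (adjusted p = 0.103), no longer a call.

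**Figure D3:**
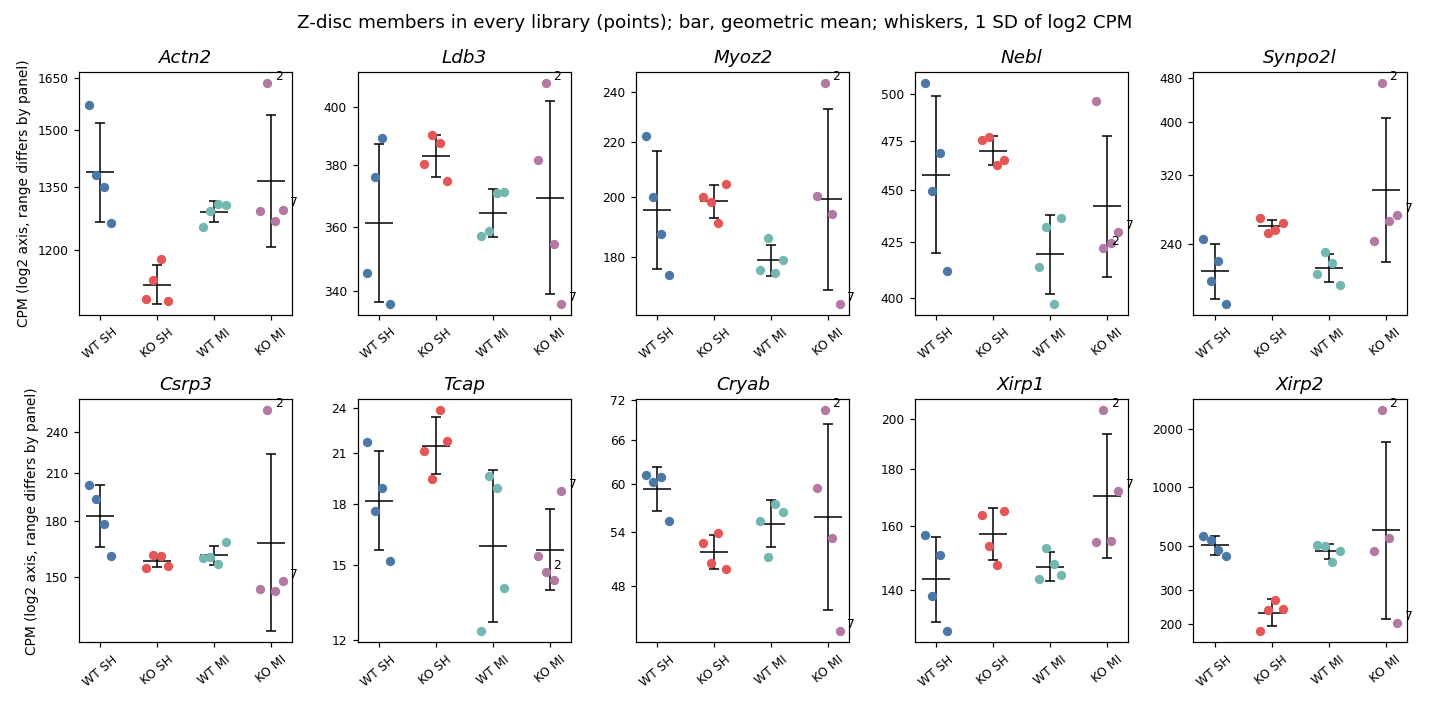
CPM of the 10 members in each of the 16 libraries (points; log2 axis with its own range in each panel), with the geometric mean as a bar and whiskers of 1 SD of log2 CPM. KO MI replicates 2 and 7 are numbered, and replicate 2 holds the highest value of 8 members.

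Of the proteins that bind α-actinin or lie along its filaments, *Ldb3*, *Myoz2* and *Nebl* were not called in any comparison. *Ldb3* (chr14:34248056-34312351, minus strand), a PDZ-LIM protein that ties α-actinin to protein kinase C, ranged from 336 to 409 CPM over all 16 libraries. Its 4 estimates between groups lay from -0.05 to 0.08 on the log2 scale, each with an SE of 0.06. *Myoz2* (chr3:122797610-122828664, minus strand), which holds calcineurin at the Z-disc, ranged from 166 to 244 CPM, with both extremes in KO MI. Its largest estimate was 0.17 (SE 0.09, adjusted p = 0.487) in KO MI against WT MI, and without KO MI replicate 7 it was 0.25 with an adjusted p of 0.0944, a call. Without replicate 2 it was 0.06 (adjusted p = 0.862), and without both it was 0.13 (adjusted p = 0.507). *Nebl* (chr2:17347467-17736275, minus strand), the small relative of nebulin in heart, ranged from 397 to 506 CPM. Its values were 475, 477, 463 and 465 CPM in KO SH against 506, 449.6, 469 and 412 CPM in WT SH, so the KO SH libraries lay inside the range of WT SH.

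*Synpo2l* (chr14:20707961-20718422, minus strand) encodes an actin-bundling Z-disc protein of heart and skeletal muscle. It had 246, 206, 224 and 187 CPM in WT SH and 267, 252, 255 and 262 CPM in KO SH. The KO SH libraries were all higher, although the test in the shared fit did not call it (log2 fold change 0.27, SE 0.15, adjusted p = 0.299; exact permutation p = 0.0286). Post-MI its level was 213, 233, 223 and 203 CPM in WT and 243, 469.8, 265 and 271 CPM in KO, again with no overlap. *Synpo2l* rose by 43.5% in KO MI against WT MI (log2 fold change 0.52, SE 0.15, adjusted p = 0.0893). Without KO MI replicate 2 the estimate was 0.26 (SE 0.07, adjusted p = 0.124), and without replicates 2 and 7 it was 0.22 (adjusted p = 0.264), and neither was called. In all, 5 of the 16 fits that left out 1 library called it, and the estimate was 0.26 to 0.62 over the 16 fits. The KO effect averaged over both surgeries was 0.39 (SE 0.10, adjusted p = 0.0268), and it was called in each of the 16 fits that left out 1 library (0.26 to 0.45). Surgery in WT hearts gave 0.01 (SE 0.15, adjusted p = 0.979).

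Of the genes of the 2 small proteins of the stretch sensor, *Tcap* was called in 1 comparison with all libraries and *Csrp3* was not called. *Csrp3* (chr7:48480142-48497901, minus strand) had 202, 193, 178 and 161 CPM in WT SH and 155, 161, 160.5 and 156 CPM in KO SH. Its estimate was -0.22 (SE 0.14, adjusted p = 0.376), and the groups overlapped by 1 WT SH library. In KO MI it had 144, 257, 143 and 148 CPM, so that 3 libraries lay below every WT MI library (157 to 168 CPM) and replicate 2 far above. The estimate in KO MI against WT MI was 0.11 with all libraries, -0.15 without replicate 2, 0.17 without replicate 7 and -0.17 without both, with no call in any of these fits. *Tcap* (chr11:98274637-98275779, plus strand) was the member with the fewest counts. Its level was 21.7, 17.6, 18.9 and 15.2 CPM in WT SH and 21.1, 19.4, 23.9 and 21.7 CPM in KO SH. Post-MI it was 12.3, 19.6, 18.9 and 14.0 CPM in the WT libraries and 15.4, 14.7, 14.4 and 18.7 CPM in the KO libraries. Every KO MI library was below every KO SH library, whereas WT MI and WT SH overlapped. *Tcap* fell by 26.7% in KO MI against KO SH (log2 fold change -0.45, SE 0.14, adjusted p = 0.0422; exact permutation p = 0.0286). The call was lost without KO SH replicate 3 (adjusted p = 0.124), KO MI replicate 2 (0.113) or KO MI replicate 3 (0.113). The difference between the surgeries' effects in the 2 genotypes was -0.27 (SE 0.19, adjusted p = 0.572).

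*Cryab* (chr9:50651859-50668567, plus strand), the chaperone of desmin and titin, had 61.1, 60.2, 60.9 and 55.3 CPM in WT SH and 52.8, 50.5, 53.9 and 49.8 CPM in KO SH. All KO SH libraries were lower, by 0.20 on the log2 scale as estimated in the shared fit (log2 fold change -0.20, SE 0.10, adjusted p = 0.236; exact permutation p = 0.0286). In WT MI it had 51.1 to 57.4 CPM. KO MI ranged from 43.5 CPM in replicate 7 to 70.4 CPM in replicate 2, the lowest and the highest values of all 16 libraries. Without replicate 7, *Cryab* rose from KO SH to KO MI by 0.24 on the log2 scale (adjusted p = 0.0294), whereas with all libraries the estimate was 0.13 (SE 0.10, adjusted p = 0.426), without replicate 2 it was 0.01 (adjusted p = 0.972) and without both it was 0.11 (adjusted p = 0.27). The exons of *Cryab* share 871 bases with *2310030G06Rik* and 757 bases with *Hspb2*, both on the other strand. These genes had 33 to 108 and 73 to 166 counts per library against 1625 to 3577 for *Cryab*.

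The Xin repeat genes were not called in sham hearts, although the groups did not overlap for *Xirp2*. *Xirp2* (chr2:67004178-67356962, plus strand) had 567, 539, 477 and 447 CPM in WT SH and 183, 236, 266 and 238 CPM in KO SH. The highest KO SH library was at 266 CPM against 447 CPM for the lowest WT SH library. The log2 fold change was -1.14 (SE 0.47), or 0.455 of the WT SH level, with an adjusted p of 0.152, which is not a call. The shared fit takes its spread from all 16 libraries, and KO MI held both 203 and 2486 CPM. Without KO MI replicate 2 the same estimate had an SE of 0.20 and an adjusted p of 0.0021, without KO MI replicate 7 the adjusted p was 0.0449, and with the 8 sham libraries alone it was 2.31e-05 (SE 0.10). With the *Xist* state as a covariate the estimate was -1.37 (adjusted p = 0.0923). The exact permutation p was 0.0286. Post-MI, *Xirp2* had 507, 499.5, 417 and 472 CPM in WT and 472, 2486, 553 and 203 CPM in KO. In KO MI against WT MI the estimate was 0.97 (SE 0.46, adjusted p = 0.407) with all libraries. It was -0.21 (SE 0.22, adjusted p = 0.827) without replicate 2, so its sign depended on the libraries kept. Of the remaining KO MI libraries, replicate 3 (553 CPM) was above every WT MI library and replicate 7 (203 CPM) was below every one. Replicate 1 (472 CPM) lay inside the WT MI range.

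From KO SH to KO MI *Xirp2* rose 4.02-fold (log2 fold change 2.01, SE 0.48, adjusted p = 0.0126). The groups overlapped, because replicate 7 lay inside the KO SH range (exact permutation p = 0.114). Without replicate 2 the rise was 0.83 on the log2 scale (adjusted p = 0.0297), and without replicates 2 and 7 it was 1.14 (SE 0.12, adjusted p = 6.36e-05). In WT hearts surgery gave -0.10 (SE 0.46, adjusted p = 0.942). The interaction was 2.11 (SE 0.66, adjusted p = 0.206) with all libraries, 0.93 (adjusted p = 0.29) without replicate 2, and 1.23 (SE 0.16, adjusted p = 0.0013) without replicates 2 and 7. Skeletal muscle genes were high in both of those libraries, and *Xirp2* was high in replicate 2 only. In KO SH, where *Xirp2* was lowest, the skeletal muscle list summed to 13.3 to 21.3 CPM, against 21.2 to 31.1 CPM in WT SH.

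*Xirp1* (chr9:119842821-119852664, minus strand) had 157, 138, 150.4 and 128 CPM in WT SH and 164, 154, 147 and 165 CPM in KO SH. Post-MI its values were 143, 153, 148 and 144 CPM in WT hearts and 155, 204, 155 and 172 CPM in KO hearts. The KO MI libraries were all above the WT MI libraries (log2 fold change 0.22, SE 0.08, adjusted p = 0.212; exact permutation p = 0.0286), and the sham groups overlapped. Without KO MI replicate 2 the estimate was 0.13 (adjusted p = 0.522), and without replicates 2 and 7 it was 0.07 (adjusted p = 0.812). Averaged over both surgeries, *Xirp1* rose by 13.1% in KO hearts (log2 fold change 0.18, SE 0.06, adjusted p = 0.0652). This call held in 10 of the 16 fits that left out 1 library. It was lost with the *Xist* state as a covariate (0.16, adjusted p = 0.116) and without KO MI replicates 2 and 7. *Xirp1* and *Synpo2l* varied together over the 16 libraries (Pearson r = 0.945, and 0.899 without KO MI replicate 2), whereas r between *Xirp1* and *Xirp2* was 0.312, and -0.565 without that library. These r values include the differences between groups.

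**Figure D4:**
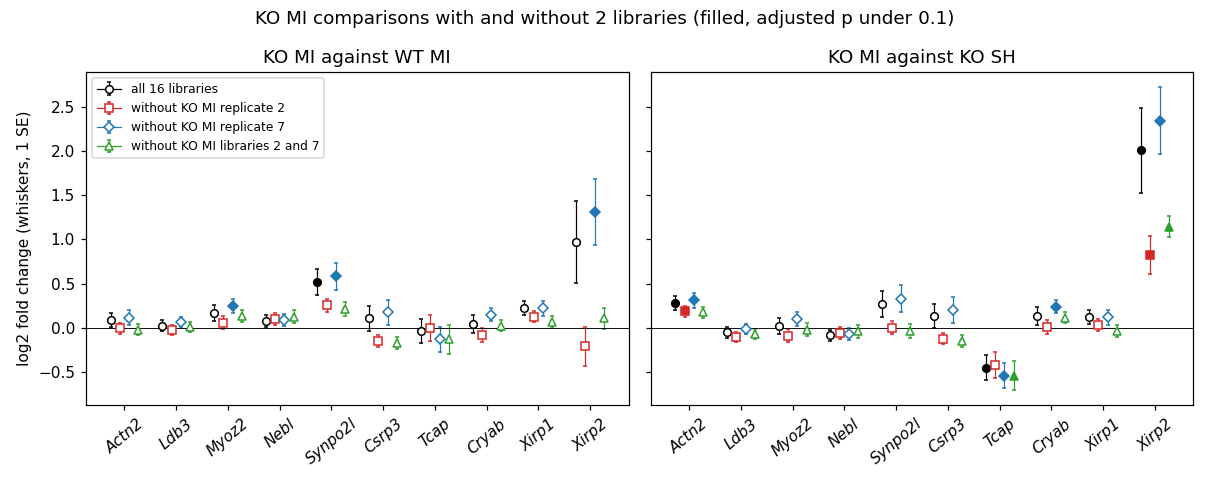
Log2 fold change (whiskers, 1 SE) of the members in KO MI against WT MI and in KO MI against KO SH, for all 16 libraries and after leaving out KO MI replicate 2, KO MI replicate 7 or the pair of them, with filled points for an adjusted p under 0.1. *Xirp2* in KO MI against WT MI goes from 0.97 to -0.21 without replicate 2, and *Xirp2* in KO MI against KO SH is called in all 4 fits.

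Whole ventricles were sequenced, so fewer heart muscle cells and less RNA per cell cannot be told apart. In KO SH against WT SH, 6 of the 10 heart muscle cell markers (troponins, myosins, *Actc1*, *Mybpc3*, *Pln* and *Ryr2*) fell, with a list median of -0.23 on the log2 scale against 0.01 over all genes. Each member was therefore also set against the mean log2 level of these markers in its own library. On this scale *Actn2* differed by -0.11 between KO SH and WT SH, compared with -0.30 for its plain log2 CPM, still with no overlap. *Xirp2* differed by -0.95, while *Csrp3* (-0.02) and *Cryab* (-0.00) overlapped between the groups. The other 6 members were higher in every KO SH library than in every WT SH library relative to the markers: *Synpo2l* by 0.47, *Tcap* by 0.42, *Xirp1* by 0.33, *Ldb3* by 0.28, *Nebl* by 0.23 and *Myoz2* by 0.22. In all, 8 of 10 members did not overlap on this scale, against 22.2% of all tested genes. The plain estimates of *Ldb3*, *Myoz2* and *Nebl* were 0.08, 0.02 and 0.03, so their differences on this scale were mostly those of the markers. The markers summed to 31966 to 44134 CPM in WT SH and 31125 to 32021 CPM in KO SH. Post-MI they summed to 30419 to 32198 CPM in WT and 28708 to 31880 CPM in KO. On this scale *Xirp1* (0.240), *Synpo2l* (0.221), *Ldb3* (0.215) and *Actn2* (0.097) were also higher in WT MI than in WT SH, with no overlap. In KO MI against WT MI every member overlapped. Rises on this scale are therefore not read as particular to KO hearts.

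Beyond the members, 45 other genes of the Z-disc were listed, and 42 of them passed the filter (*Actn3*, *Myoz3* and *Ankrd2* did not). In KO SH against WT SH, 10 of the 42 fell and 1 rose, against 7.22% of genes lower and 5.11% higher, with a list median of -0.20 and 34 of 42 estimates below 0. The fall took in *Ttn*, titin (50363 ± 1171 CPM in WT SH and 42551 ± 718 CPM in KO SH; log2 fold change -0.24, adjusted p = 0.0135). The chaperone partner *Bag3* (-0.24, adjusted p = 0.024) and non-muscle α-actinin 4 (*Actn4*, -0.28, adjusted p = 0.0787) had similar values. The capping protein genes *Capzb* (-0.24, adjusted p = 0.0327) and *Capza1* (-0.98, adjusted p = 0.0061) fell. *Capza1* encodes an α subunit of the protein that caps actin filaments at the Z-disc. It had 36.1 ± 13.7 CPM in WT SH and 18.2 ± 1.34 CPM in KO SH, and 49.4 ± 7.20 and 23.5 ± 4.06 CPM post-MI. It was lower post-MI too (-1.07, adjusted p = 0.0059). The other listed α subunit gene, *Capza2*, was not called between the genotypes in sham hearts or post-MI (post-MI -0.05, adjusted p = 0.864). The MuRF ubiquitin ligase genes went opposite ways in sham hearts: *Trim54* fell (-0.77, adjusted p = 0.0158) and *Trim55* rose (0.43, adjusted p = 0.0098). With KO MI replicate 2 left out of the shared fit, 17 of the 42 fell and 3 rose, where 15.9% of all genes were called.

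In KO MI against KO SH, 16 of the 42 rose and 1 fell, against 10.2% of genes higher and 7.32% lower, with a list median of 0.28 against -0.01 over all genes. The LIM and ankyrin repeat genes made up 5 of the 16, among them the LIM genes *Csrp2* (0.66, adjusted p = 0.0028), *Csrp1* (0.74, adjusted p = 0.0052) and *Fhl1* (0.86, adjusted p = 0.0137). *Ankrd1*, the cardiac ankyrin repeat protein that responds to load, had 228 to 344 CPM in KO SH and 363 to 1002 CPM in KO MI, the highest again in replicate 2 (log2 fold change 0.89, adjusted p = 0.0319). Without that library the estimate was 0.38 (adjusted p = 0.102), which is not a call. Both non-muscle actinins rose (*Actn1* 0.59, adjusted p = 0.006; *Actn4* 0.41, adjusted p = 0.0108), as did the PDZ-LIM gene *Pdlim3* (0.81, adjusted p = 0.01) and filamin C (*Flnc* 0.41, adjusted p = 0.0209). *Fhl2* was the gene that fell (-0.34, adjusted p = 0.0121), with 182 ± 8.31 CPM in KO SH and 143 ± 22.2 CPM in KO MI. Without KO MI replicate 2 the estimates were 0.48 for *Csrp1*, 0.43 for *Fhl1*, 0.39 for *Actn1*, 0.52 for *Pdlim3* and 0.24 for *Flnc*, each still called, and without replicates 2 and 7 *Flnc* was at 0.17 (adjusted p = 0.123) and *Fhl2* at -0.18 (adjusted p = 0.0605). The list had, without KO MI replicate 2, 9 higher and 1 lower calls, without replicate 7 it had 22 and 5, and without both 13 and 4, where 9.55%, 28% and 16.9% of all genes were called. *Csrp1*, *Csrp2* and *Actn1* are also made by smooth muscle and other cells, and the 4 listed smooth muscle markers summed to 168 to 217 CPM in KO SH and 273 to 331 CPM in KO MI. In this comparison 3 of 4 smooth muscle, 11 of 12 skeletal muscle, 2 of 4 atrial, 5 of 6 macrophage, 5 of 5 erythroid and 4 of 7 fibroblast markers rose. Of the endothelial markers 2 of 5 fell, and of the 10 heart muscle cell markers 3 rose and 2 fell. The part of other cell types in these rises was not tested.

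Between the genotypes post-MI, 2 of the 42 other Z-disc genes rose in KO and 2 fell, against 1.03% of genes higher and 2.04% lower. *Ankrd1* rose (1.101, SE 0.26, adjusted p = 0.0314), with 238 to 261 CPM in WT MI and 363 CPM or more in each KO MI library. The estimate for *Ankrd1* without KO MI replicate 2 was 0.59 (adjusted p = 0.0301), and without replicates 2 and 7 it was 0.57 (adjusted p = 0.0707). *Trim55* rose (0.39, adjusted p = 0.0408) and was not called without both libraries (0.32, adjusted p = 0.149). *Capza1* and *Fhl2* (-0.42, adjusted p = 0.0093) were the ones that fell, and without replicates 2 and 7 *Fhl2* was at -0.26 (adjusted p = 0.0355). In WT MI against WT SH, 2 of the 42 fell, *Ttn* among them (-0.22, adjusted p = 0.0359), and 0 rose, against 2.21% of genes lower and 3.11% higher. Without KO MI replicate 2 the last comparison had 6 lower and 2 higher calls, and without replicate 7 it had 6 and 0. Of all genes, 8% and 8.44% were called in these fits. The interaction called 0 of the 42 in edgeR, with 16 at an unadjusted p under 0.05, a list median of 0.25 and 36 estimates above 0, and it called 11 without KO MI replicate 7, where it called 9.08% of all genes, and 4 without replicates 2 and 7, where it called 4.11%. Averaged over both surgeries, 3 of the 42 rose and 6 fell, against 4.71% of genes higher and 6.82% lower. Without KO MI replicate 2 these counts were 3 and 14, where 15% of all genes were called.

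**Figure D5:**
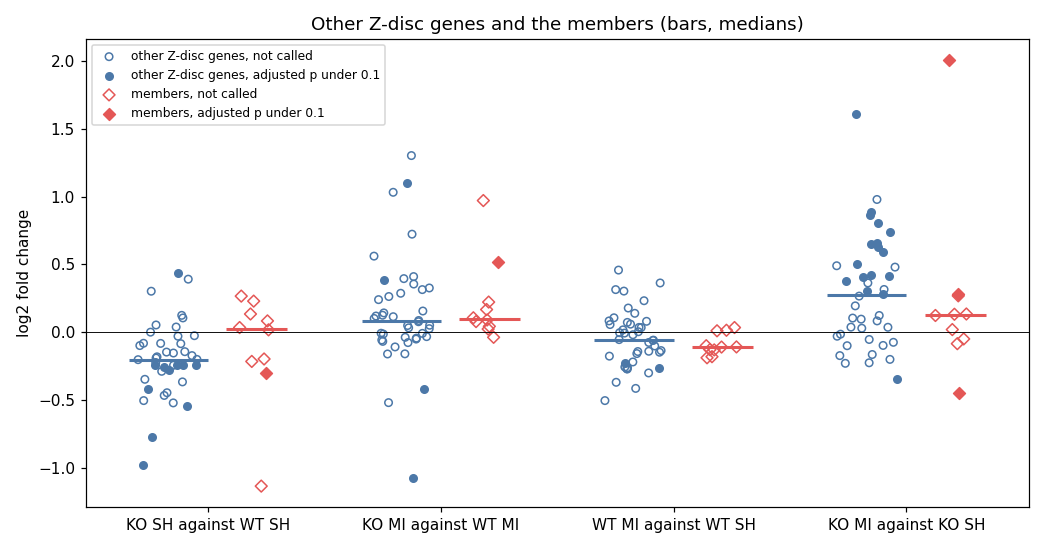
Log2 fold change of the 42 other Z-disc genes (circles) and the 10 members (diamonds) in the 4 comparisons of 2 groups, filled for an adjusted p under 0.1, with bars at the medians. The other Z-disc genes lie mostly below 0 in KO SH against WT SH (median -0.20) and above 0 in KO MI against KO SH (median 0.28).

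For each member, the genes whose log2 CPM followed it most closely over the 16 libraries were taken from 7163 genes with a mean of at least 10 CPM. *Actn2* was followed by *Myh9* (Pearson r = 0.944), *Ywhag* (0.943) and *Myl6* (0.935). *Xirp2* was followed by *Clic5* (0.979), *Fam162a* (0.968) and *Meox1* (0.967), and these stayed at 0.941 or above without KO MI replicate 2. *Synpo2l* was followed by *Fuca2* (0.923), *Ankrd1* (0.92) and *Fam168a* (0.898), and *Xirp1* by *Manf* (0.879), *Fuca2* (0.861) and *Ankrd1* (0.858). The values for *Ankrd1* without KO MI replicate 2 were 0.743 with *Synpo2l* and 0.669 with *Xirp1*. *Cryab* was closest to *Hspb8* (0.935), another small heat shock protein gene, then *Itga1* (0.925) and *Lap3* (0.888). *Csrp3* was closest to *Usp28* (0.924), *Nrap* (0.896) and *Ufm1* (0.893), but the value for *Nrap* was 0.737 without that library. *Myoz2* was closest to *Hbegf* (0.91), *Tcap* to *Gpatch2* (0.878), *Nebl* to *Pik3r1* (0.868) and *Ldb3* to *Arhgap44* (0.833). Libraries of 1 group share its condition, and the values are a description.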

How the data were processed

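Sequencing was paired, 150 bp, of ribosome-depleted total RNA with a stranded kit, 16 libraries in all. The deposited values are RSEM expected counts per Ensembl gene, made by the authors and given as whole numbers. Per the labels, the submitters' processing notes name bcl2fastq 2.17, cutadapt 3.4, FastQC, HISAT2 2.2.1, RSEM 1.1.17, DESeq2 and GRCm39, whereas the study's methods name Skewer and STAR before RSEM, and the difference was not settled. RSEM shares reads that match several genes among them. The annotation release is not given in the sources used here. Symbols and coordinates are from GENCODE M39 (GRCm39), which held 47772 of the 51912 identifiers, and the rest took 0.57% to 0.786% of the counts.

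Counts were fitted with edgeR 4.0.16 in R 4.3.3 (TMM, quasi-likelihood F-test, 1 model over the 4 groups) for the 20159 genes with at least 10 summed counts in each group, and p-values were Benjamini-Hochberg adjusted over those genes. Thresholds (adjusted p under 0.1, absolute log2 fold change of at least 0.5) follow the study's methods, whose test was DESeq2, run here as an alternative (1.42.0). CPM used the TMM-scaled library size, and exact permutation tests used log2(CPM + 0.5). Nothing says that the libraries of a group were litters or batches, and p-values measure the spread between these hearts. Depth gave at least 585 counts for each member, so that the spread between libraries, not counting error, limits precision. Named genes were the members, *Lrrc10*, up to 8 called genes of the other Z-disc list per comparison by adjusted p, and the 3 genes most like each member, and a gene named in 1 comparison may be given in another. *Hspb2* and *2310030G06Rik* (exon overlap), *Nppa*, *Xist* and *Capza2* were named after their values were seen. The values of 1 gene of the other Z-disc list are not reported here, and it is counted in the list totals. The members and lists were chosen with earlier results of these data known. Alternatives were other normalizations, filters, pseudocounts, thresholds, samples, covariates and the omission of libraries, and the omission of KO MI replicates 2 and 7 for the other Z-disc list was added after seeing the data. The fits were checked on simulated counts with known changes in KO SH alone. No simulated library was set apart from its group, so this check does not cover the effect of KO MI replicates 2 and 7.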

Additional observations from a re-analysis of the deposited data

Results flagged for a closer look

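In 6 of the 40 sets of 1 member in 1 group, the highest or lowest of the 4 libraries lay apart from the rest by Dixon's criterion at the 95% level (the gap to the nearest library over the whole range), and chance alone marks about 1 set in 20. KO MI replicate 2 was the library in 4 of them. There *Actn2* was at 1635 CPM against 1294 CPM for the next library (gap ratio 0.929), *Csrp3* at 257.4 against 148.2 CPM (0.956), *Synpo2l* at 469.8 against 271.1 CPM (0.877) and *Xirp2* at 2486 against 553.2 CPM (0.847). *Nebl* in KO MI replicate 1 was at 496.3 CPM against 429.8 CPM (0.897). *Cryab* in WT SH replicate 4 was the lowest of its group, at 55.26 CPM against 60.2 CPM (0.843). The same KO MI replicate 2 held the highest *Ankrd1* level, 1002 CPM, and the highest summed skeletal muscle and atrial lists, 234 and 2428 CPM. *Nppa* made up nearly all of that atrial sum, and 1 of the 4 atrial genes was above every WT library there.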

How the results depend on the processing

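*Actn2* in KO SH against WT SH kept its call in every alternative run except the minimum fold change, which left 0 members, and *Synpo2l* averaged over both surgeries was called in all 16 fits without 1 library. In KO SH against WT SH 1 member was called, but 2 with the replicate block or the *Xist* covariate (*Actn2*, *Xirp2*), and 5 with the sham groups alone or without KO MI replicate 2 (*Actn2*, *Csrp3*, *Cryab*, *Xirp2*, *Synpo2l*), and 1 to 5 without single libraries. Of all genes, 12.3% were called in the main fit, 17% with the replicate block and 12.2% with the *Xist* covariate. With the sham groups alone the share was 18%, and without KO MI replicate 2 it was 15.9%. For KO MI against WT MI the 1 call (*Synpo2l*) became 0 at an adjusted p under 0.05, with DESeq2, with the robust fit, with only the groups compared and without KO MI replicates 2 and 7, and 0 to 3 without single libraries, 3 being without KO MI replicate 7. For KO MI against KO SH 3 calls became 1 with the minimum fold change and 2 to 4 without single libraries. In WT MI against WT SH it was 0 to 1 (*Csrp3*, without KO MI replicate 2). The interaction had 0 calls, 1 with DESeq2, 2 with the replicate block, 1 without KO MI replicates 2 and 7 and 0 to 3 without single libraries. Averaged over both surgeries, the 2 calls became 1 at an adjusted p under 0.05 and 0 with the minimum fold change. They became 1 with the replicate block and 1 with the *Xist* covariate. Without KO MI replicates 2 and 7 there were 4 (*Actn2*, *Csrp3*, *Xirp2* and *Synpo2l*), and without single libraries 1 to 5. Of the other Z-disc genes, 15 to 20 were called in KO SH against WT SH without KO MI replicate 7 or 2, 4 to 8 in KO MI against WT MI, 6 to 8 in WT MI against WT SH, 10 to 27 in KO MI against KO SH, 0 to 11 in the interaction and 12 to 17 averaged, and without both libraries 4 in the interaction and 16 averaged. Without KO MI replicate 2, 15.9% of all genes were called in KO SH against WT SH and 2.21% in KO MI against WT MI. The shares were 8% in WT MI against WT SH, 9.55% in KO MI against KO SH, 0.0301% in the interaction and 15% averaged. Without KO MI replicate 7 these shares were, in the same order, 17.5%, 6.16%, 8.44%, 28%, 9.08% and 12.7%. Without both, 4.11% of genes were called in the interaction and 13.5% averaged. Over all genes the interaction had 5 calls in edgeR and 571 in DESeq2, 1483 with the replicate block and 1816 without KO MI replicate 7. The replicate block has a term for number 7 that fits KO MI replicate 7 exactly, so that library is in effect left out there too. The causes were not tested.

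Signs turned for estimates near 0, and for some larger ones that rest on KO MI. With all libraries, *Xirp2* in KO MI against WT MI was at 0.971. In KO MI against KO SH *Synpo2l* was at 0.268, *Csrp3* at 0.134 and *Xirp1* at 0.123, and *Synpo2l* in the interaction was at 0.255. With the *Xist* covariate the turned estimates were -0.043 for *Myoz2* and -0.006 for *Nebl* in KO SH against WT SH. In WT MI against WT SH they were -0.025 for *Ldb3* and -0.055 for *Synpo2l*. Without KO MI replicates 2 and 7 they were -0.019 for *Actn2* and -0.171 for *Csrp3* in KO MI against WT MI, -0.019 for *Myoz2*, -0.145 for *Csrp3*, -0.032 for *Xirp1* and -0.038 for *Synpo2l* in KO MI against KO SH, and -0.072 for *Xirp1* and -0.058 for *Synpo2l* in the interaction. Without single libraries, the ranges that crossed 0 in KO MI against WT MI were -0.006 to 0.125 for *Actn2*, -0.080 to 0.149 for *Cryab*, -0.149 to 0.187 for *Csrp3*, -0.028 to 0.066 for *Ldb3*, -0.149 to 0.067 for *Tcap* and -0.210 to 1.304 for *Xirp2*. For KO MI against KO SH they were -0.122 to 0.213 for *Csrp3* and -0.089 to 0.099 for *Myoz2*, in WT MI against WT SH -0.022 to 0.049 for *Ldb3*, -0.046 to 0.085 for *Synpo2l* and -0.014 to 0.082 for *Xirp1*, and in KO SH against WT SH -0.033 to 0.085 for *Myoz2* and -0.013 to 0.086 for *Nebl*. For the interaction they were -0.023 to 0.092 for *Nebl*, -0.011 to 0.349 for *Synpo2l* and -0.006 to 0.137 for *Xirp1*, and averaged -0.673 to 0.084 for *Xirp2*. Pseudocounts of 0.05 and 2 CPM moved no member past the spread between replicates.

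The replicate numbers were not taken to pair hearts: same-numbered libraries' deviations from their group means correlated at -0.038 to 0.112, and 0 of 8 libraries in KO SH against WT SH, 0 of 8 in WT MI against WT SH, 3 of 6 in KO MI against WT MI and 4 of 6 in KO MI against KO SH correlated best with their own number. With the numbers as a block, *Xirp2* in KO SH against WT SH had an adjusted p of 0.0377 and *Cryab* in KO MI against KO SH 0.0707. In the interaction *Xirp2* (0.0352) and *Actn2* (0.0723) gained calls, and *Xirp1* averaged lost its call (0.112). Number 7 occurs in KO MI alone, so the block in effect also left out KO MI replicate 7, and these values are not a check of pairing alone.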
